A study of Mus musculus with 22 samples.

Results

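The 8 genes *Pf4*, *Ppbp*, *Itga2b*, *Itgb3*, *Gp9*, *Gp5*, *Gp6* and *Vwf* encode products of megakaryocytes and platelets. They were chosen by name from the 37,991 genes of the E14.5 liver count table, and all 8 passed the filter on low counts. RNA-seq covered 3 wild-type and 3 homozygous E14.5 fetal livers, with replicates 1 and 2 male and replicate 3 female in each genotype. Whole genome bisulphite sequencing covered whole E10.5 embryos (all male), E14.5 livers (1 male and 1 female of each genotype, littermates) and E18.5 livers (all female), with 2 samples of each genotype per stage. Homozygotes carried *MommeD28*, a single ENU-induced null allele of *Rlf*, in every cell. All animals, controls included, were of the inbred FVB strain (FVB/NJ, Line3) and homozygous for an array of GFP transgenes driven by the human alpha-globin promoter with its upstream enhancer. Embryos came from matings of heterozygotes.

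Megakaryocytes are the large polyploid cells that shed platelets, and in the mouse fetus they mature mainly in the liver, beside the erythroid cells with which they share a progenitor. Platelets use surface glycoproteins to catch von Willebrand factor and collagen at a damaged vessel, an integrin to bind fibrinogen and hold to each other, and granules filled with chemokines and adhesive proteins that are released on activation. DNA methylation is usually low at the active start sites of CpG-rich genes, while start sites with few CpGs can be methylated in tissues that do not use them. A whole liver holds many cell types, so a level measured here is a mix over all of them, and in such bulk samples fewer cells of a type and less RNA per cell cannot be told apart.

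The upstream sequences show how differently these promoters are built. Each is read from NCBIM37 (mm9, the build of the files, which is not the FVB sequence), 5′ to 3′ on the strand of the gene, with CpGs in capitals and positions counted from the start site of the transcript with the longest coding sequence. The first 3 stretches of 250 bases belong to CpG-poor promoters that lost methylation between embryo and liver, and the fourth to *Itgb3*. Taken as a whole, that promoter held little methylation at each stage, though single CpGs near its edges held more. The 30 bases of *Pf4* lie just after its start codon and hold 5 of the CpGs with the lowest methylation in liver, and the 59 bases of *Itga2b* are those between its start site and an upstream exon of another transcript.
*Pf4*, chr5:91201211-91201460, plus strand: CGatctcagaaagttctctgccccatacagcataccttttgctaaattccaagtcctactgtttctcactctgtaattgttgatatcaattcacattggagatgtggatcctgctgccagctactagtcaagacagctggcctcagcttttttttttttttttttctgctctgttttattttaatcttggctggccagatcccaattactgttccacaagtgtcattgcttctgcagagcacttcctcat
*Gp9*, chr6:87727880-87728129, plus strand: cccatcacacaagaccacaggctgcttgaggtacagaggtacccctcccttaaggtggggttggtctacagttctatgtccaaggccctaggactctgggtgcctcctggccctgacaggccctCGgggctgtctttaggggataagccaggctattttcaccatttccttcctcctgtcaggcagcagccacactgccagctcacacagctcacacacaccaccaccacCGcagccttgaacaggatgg
*Vwf*, chr6:125502716-125502965, plus strand: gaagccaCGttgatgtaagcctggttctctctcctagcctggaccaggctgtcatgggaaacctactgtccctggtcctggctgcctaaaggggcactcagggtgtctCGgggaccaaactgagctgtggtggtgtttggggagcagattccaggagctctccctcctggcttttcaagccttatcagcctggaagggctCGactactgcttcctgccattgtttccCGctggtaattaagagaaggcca
*Itgb3*, chr11:104469120-104469369, plus strand: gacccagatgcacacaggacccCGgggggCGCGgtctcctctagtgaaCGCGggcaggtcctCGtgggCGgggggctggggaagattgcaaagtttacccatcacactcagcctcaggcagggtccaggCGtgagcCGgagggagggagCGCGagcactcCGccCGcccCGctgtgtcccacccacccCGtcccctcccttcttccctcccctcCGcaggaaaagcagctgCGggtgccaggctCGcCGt
*Pf4* coding, chr5:91201611-91201640, plus strand: agCGtCGctgCGgtgtttCGaggcctcCGg
*Itga2b*, chr11:102331198-102331256, minus strand: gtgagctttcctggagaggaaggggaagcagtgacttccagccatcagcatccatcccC
The 250 bases upstream held 19 CpGs in *Itgb3*, 4 in *Vwf*, 2 each in *Gp9*, *Ppbp* and *Itga2b*, 1 each in *Pf4* and *Gp6* and 0 in *Gp5*, against a median of 9 over 22,342 protein-coding promoters. The last base of the *Itga2b* stretch is the C of a CpG that straddles the start site. Short motifs known from megakaryocyte genes were searched on both strands of the same 250 bases. The ETS motif AGGAAG was found in *Pf4*, *Itga2b*, *Gp9*, *Gp5* and *Vwf*, and in 29% of all promoters. In *Pf4* it ran from -9 to -4 on the opposite strand, and in *Itga2b* it occurred at -125 and, within the bases shown, from -43 to -38. The GATA motif AGATAA was found in *Gp5* at -95 and -79 and in *Gp6* at -144, and in 9.12% of all promoters. The RUNX motif TGTGGT was found in *Gp9* and *Vwf* (12.7% of all promoters), and the NF-E2 motif TGAGTCA in none of the 8 (3.79%). These matches are letters in a window and were not tested for binding.

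*Rlf* itself (ENSMUSG00000049878) had 70.0, 72.3 and 68.9 CPM in wild-type and 76.3, 79.8 and 67.6 CPM in homozygous livers, where CPM is the count of a gene scaled to the total count of its library after TMM normalisation. The groups overlapped, and since the allele was made by a point mutagen, the transcript level does not check the labels. RNA-seq libraries held 12928313 to 14621004 counts in genes. Mean coverage of a reference CpG in the bisulphite libraries was 14.997 to 17.02 reads for embryos, 29.5 to 33.3 reads for E14.5 livers and 16.2 to 16.8 reads at E18.5, so the E14.5 values rest on about 2 times the reads of the others. Of the marker lists for other cells of the liver, erythroid and hepatoblast genes were the most abundant, with summed levels of 29289 to 54124 and 56396 to 80039 CPM over the 6 livers.

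Per length of transcript, the 8 genes covered a wide range in E14.5 liver. On the RPKM scale, which divides CPM by the length of the exons in kilobases, the mean level over the 6 livers was 300.1 for *Pf4*, a chemokine stored in platelet alpha granules, and 204 for *Ppbp*, the neighbouring gene whose product is cut into several platelet chemokines. These exceeded the mean RPKM of 99.1% and 98.5% of the 14,183 genes tested. *Gp9*, a subunit of the glycoprotein Ib-IX-V receptor for von Willebrand factor, had a level of 38.6, and *Itgb3*, the beta subunit of the platelet fibrinogen receptor, 27.6. *Itga2b*, the alpha subunit of the same integrin and an early marker of the lineage, had 16.9, *Gp5*, another subunit of the von Willebrand factor receptor, 14.3, *Gp6*, the collagen receptor, 5.07, and *Vwf*, the adhesive protein made by megakaryocytes and endothelial cells, 3.13. Ranges over the 6 livers overlapped between *Gp9* and *Itgb3* and between *Itga2b* and *Gp5*, while every other pair of neighbours in this order was apart.

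The 8 genes were listed with the RNA difference between genotypes already known, so their levels by genotype are given as a description, and no call made on them in this contrast is evidence of its own. *Pf4* (ENSMUSG00000029373) had 155, 153 and 146 CPM in wild-type and 186, 202 and 213 in homozygous livers. Every homozygous liver was above every wild-type liver, and the means were 151 ± 4.86 and 200 ± 13.8 CPM (SD, n = 3), a log2 fold change of 0.40 with a standard error of 0.07. For *Itgb3* (ENSMUSG00000020689), the levels were 123, 142 and 143 CPM in wild-type and 184, 178 and 199 in homozygous livers. The groups did not overlap here either, and the log2 fold change was 0.46 with a standard error of 0.08.
*Itga2b* (ENSMUSG00000034664) was measured at 76.1, 88.7 and 81.9 CPM in wild-type livers and at 103, 93.4 and 110 in homozygous livers. Its groups were apart by less than those of *Itgb3*, with a log2 fold change of 0.31. *Gp9* (ENSMUSG00000030054) gave 31.0, 24.8 and 28.8 CPM against 34.0, 36.4 and 32.9, again without overlap, and a log2 fold change of 0.29.
In the other 4 genes the groups overlapped. *Gp5* (ENSMUSG00000047953) had 25.5, 32.8 and 26.0 CPM in wild-type and 32.5, 33.3 and 37.8 in homozygous livers. The second wild-type liver lay just above the lowest homozygous one. *Ppbp* (ENSMUSG00000029372) had 194, 206 and 221 CPM against 219, 231 and 249. *Vwf* (ENSMUSG00000001930) had 44.9, 44.6 and 51.0 CPM against 59.7, 47.9 and 53.9. *Gp6* (ENSMUSG00000078810) was low throughout, with 5.11, 6.28 and 5.47 CPM against 5.67, 5.56 and 6.95. The log2 fold changes of these genes were 0.30, 0.17, 0.20 and 0.11, the last with a standard error of 0.15.

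**Figure D1:**
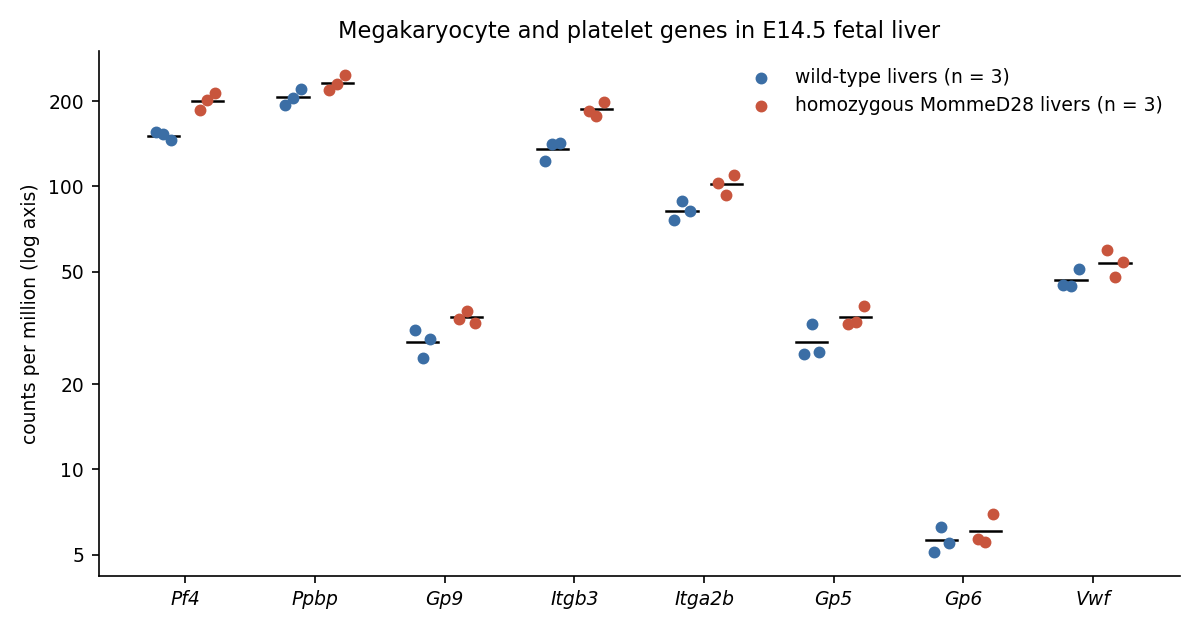
CPM (TMM-normalised, log axis) of the 8 genes in each E14.5 liver, wild-type in blue and homozygous in red, with a black bar at the mean of 3 livers. The mean was higher in homozygous livers for all 8 genes, and the points of the genotypes were apart for *Pf4*, *Gp9*, *Itgb3* and *Itga2b*.

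The mean was higher in homozygous livers for 8 of 8 genes, with a median log2 fold change of 0.29 beside -0.0017 over all genes tested. All homozygous livers lay above all wild-type livers for 4 of the 8 genes, and for 10.51% of all genes tested. By edgeR's quasi-likelihood test, *Pf4* and *Itgb3* were among the 0.698% of genes called higher at an adjusted p under 0.05. Because the genes were listed with this contrast known, nothing is read from these counts. With replicate number as a block, and with DESeq2, *Itga2b* was called too. Without homozygous replicate 3 none of the 8 was called, the median log2 fold change was 0.24 and that of *Gp6* turned to -0.0062. Without wild-type replicate 3 *Itgb3* alone was called, and without wild-type replicate 2 *Itga2b* and *Gp5* were called in addition.

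Across the 6 livers the log2 CPM of the 8 genes had Pearson correlations from -0.15 to 0.96 over the 28 pairs of genes and a median of 0.71, in genes listed with their shared genotype difference known. The 5 other genes with a mean of at least 1 CPM whose pattern over the 6 livers was most like that of the 8 were *Mmrn1*, *Frmd6*, *Akap12*, *Acvr2a* and *Itga6*, with mean correlations of 0.82. These livers share 2 genotypes and 2 sexes, so the correlations also hold those differences.

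The genes with which the 8 act were described by role, from lists that held 98 symbols, of which 94 were in the table and 89 passed the filter. By edgeR's quasi-likelihood test over all genes, 7 of the 89 rose in homozygous livers, 1 fell and 81 did not pass, so that 7.87% were called higher beside 0.698% of all genes, and 1 gene beside 0.691% called lower. The lists, too, were made with earlier results of these data known. Replicate number as a block called 263 of all 14,183 genes higher and 197 lower. Under it 19 of the listed genes were called, 17 higher and 2 lower. The 11 that it added were *Gp1ba*, *Cd9*, *F2rl2*, *P2ry1*, *F5*, *Thbs1*, *Lox*, *Lat*, *Plek* and *Dapp1*, all higher, and *Tbxas1*, which was lower, with blocked adjusted p-values of 0.0040 to 0.048. The count was 1 without homozygous replicate 1 or without wild-type replicate 1, 3 without homozygous replicate 3 and 4 without wild-type replicate 3. Over all fits that left out 1 liver it ranged from 1 to 9, beside 66 to 224 of all genes.

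Among 13 transcription factors, *Mef2c*, which acts in late megakaryocytes as well as in muscle and lymphocytes, rose from 28.2, 34.5 and 32.3 CPM to 44.8, 41.9 and 48.4. The groups were apart, the log2 fold change was 0.51 ± 0.09 (SE) and the adjusted p was 0.016. The most abundant factors per length were *Tal1* and *Zfpm1*, both shared with erythroid cells, with log2 fold changes of -0.05 (adjusted p = 0.83) and -0.08 (adjusted p = 0.68). The median log2 fold change of the 13 was 0.10. None of 9 genes of thrombopoietin signalling passed the test, and their median was 0.06. The most abundant of them were *Grb2*, an adaptor, and *Jak2*, the kinase that the thrombopoietin receptor works through, at -0.06 and 0.04.

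Of 20 genes for other platelet surface receptors, 2 rose. *Itga6*, the alpha subunit of a laminin receptor, rose from 35.9, 39.0 and 39.0 CPM to 48.3, 44.7 and 50.5 (log2 fold change 0.33, adjusted p = 0.049). *F2r*, a thrombin receptor, rose from 75.2, 83.3 and 88.5 CPM to 101, 103 and 111 (log2 fold change 0.35, adjusted p = 0.032). The genotypes did not overlap in either gene. *Itgb1* and *Cd9*, the most abundant per length, had log2 fold changes of 0.11 (adjusted p = 0.43) and 0.29 (adjusted p = 0.080, and 0.041 with the replicate block). The median of the 20 was 0.28.

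Of 16 genes for granule proteins, *Mmrn1* and *Clu* rose. *Mmrn1*, which encodes the factor V carrier of alpha granules, had 24.3, 27.9 and 27.3 CPM in wild-type livers and 39.3, 35.7 and 47.2 in homozygous livers, a log2 fold change of 0.62 ± 0.10 (SE, adjusted p = 0.014). *Clu*, a secreted chaperone made by many cell types, had 100, 107 and 119 CPM against 146, 165 and 163, with a log2 fold change of 0.54 and an adjusted p of 0.0052. *Sparc* and *Vamp8*, the most abundant per length, had log2 fold changes of 0.23 and -0.16 and did not pass. Of 20 genes of receptor signalling, *Rgs18*, a brake on G protein signalling, rose by 0.43 (adjusted p = 0.045) and *Alox12*, the platelet lipoxygenase, by 0.56 (adjusted p = 0.033), on the log2 scale. *Rap1b* and *Fermt3*, both needed to activate the fibrinogen receptor, had log2 fold changes of 0.05 each and did not pass.

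Of 11 genes of the cytoskeleton and of platelet shedding, *Myl9*, a myosin light chain that is also abundant in smooth muscle, was the single gene that fell. Its levels were 37.8, 32.0 and 41.0 CPM in wild-type and 15.6, 20.2 and 25.3 in homozygous livers, a log2 fold change of -0.85 ± 0.15 (SE) with an adjusted p of 0.014. *Tuba4a* and *Tpm4*, the most abundant per length, had log2 fold changes of 0.05 and 0.19 and did not pass. The 5 other chemokine genes of the *Pf4* and *Ppbp* cluster did not reach the filter on low counts.
*Clu* kept its call in 6 of 6 fits that left out 1 liver. *Mmrn1* did so in 4, *Myl9* in 3, *Mef2c* in 2, *F2r*, *Rgs18* and *Alox12* in 1 and *Itga6* in 0, with adjusted p-values up to 0.16 in these fits.

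**Figure D2:**
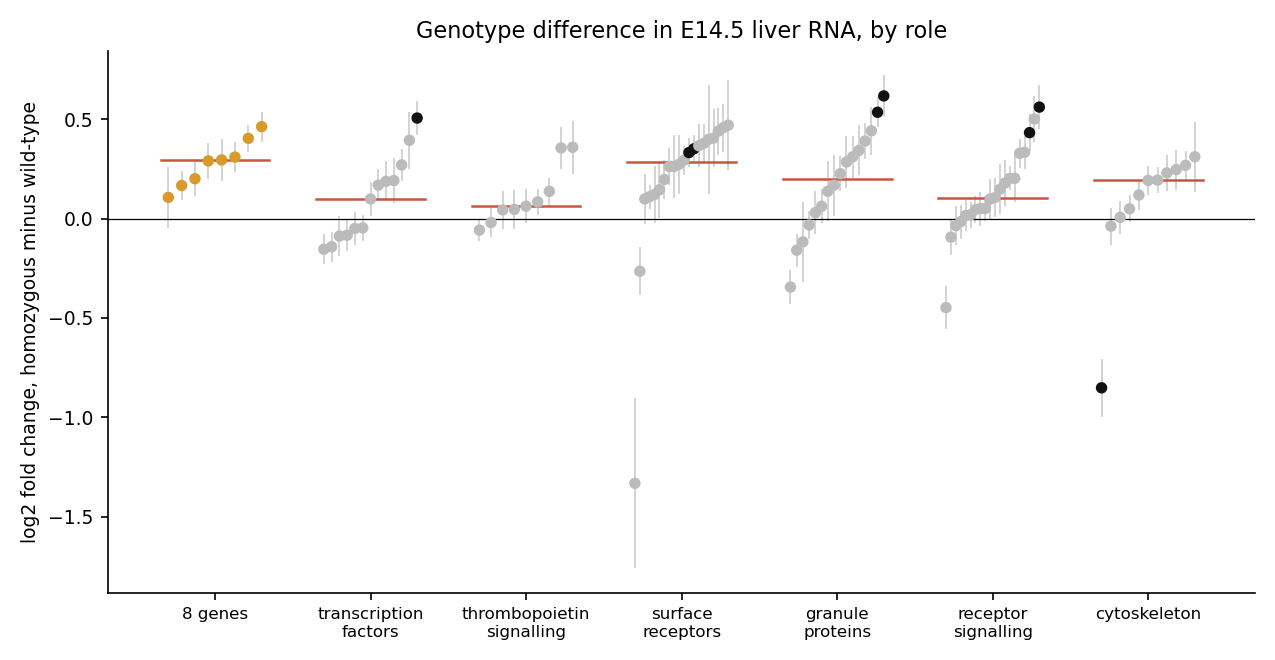
Log2 fold change (homozygous minus wild-type) in E14.5 liver with its standard error for the 8 genes (orange, listed with this contrast known) and for 89 genes by role, in black where the adjusted p was under 0.05 and in grey otherwise, with a red line at the median. Black points lie above 0 in 4 of the 6 roles, and the single black point below 0 is *Myl9* at -0.85.

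Markers of other cells moved in the same libraries. Of 9 neutrophil genes, 6 fell (*Elane*, *Ltf*, *S100a8*, *S100a9*, *Ngp* and *Camp*, with log2 fold changes of -0.67 to -0.93), and their summed level was 912 to 1330 CPM in wild-type and 753 to 877 in homozygous livers. Of 9 endothelial genes, which matter here because endothelial cells also make von Willebrand factor, 0 passed the test, with a median log2 fold change of 0.20 and summed levels of 293 to 324 and 332 to 385 CPM that did not overlap. All 9 had log2 fold changes above 0, beside 49.4% of all genes tested. Every homozygous liver lay above every wild-type liver for 4 of the 9, beside 10.51% of all genes tested. Of 9 macrophage genes, *Cd5l* fell and 8 did not pass, with a median log2 fold change of 0.06 and 5 of the 9 above 0. Their summed level was 718 to 776 CPM in wild-type and 676 to 704 in homozygous livers, again without overlap. That sum holds *Cd5l*, with means of 107 and 46.9 CPM, and *Marco*, with 111 and 73.6 CPM, in wild-type and homozygous livers. None of 10 erythroid, 8 hepatoblast, 4 mast cell, 7 progenitor or 6 mesenchymal genes passed, with medians of -0.14, 0.12, -0.39, 0.03 and 0.15. The summed hepatoblast level was 56396 to 67018 CPM in wild-type and 68934 to 80039 in homozygous livers, without overlap, while the erythroid ranges overlapped. The part of these cells in the levels of the 8 genes and of the genes listed by role was not tested.

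Between the whole E10.5 embryo and the E14.5 liver, promoter methylation fell at 6 of the 7 genes that could be compared. A promoter here is 1 kb to either side of the start site, and its methylation is given as methylated reads in percent of all reads, pooled over those CpGs that each of the 12 libraries covered at least 6 times. Stage, tissue and, in part, sex differ between these groups and cannot be told apart. *Pf4* had 22 such CpGs. Their methylation was 91.0% and 84.5% in the wild-type embryos and 19.4% and 21.9% in the wild-type E14.5 livers, a difference of -67.1 points (edgeR, adjusted p = 3.6e-07). Of 20,637 promoters tested, 0.029% fell further. *Itga2b* had 78.5% and 79.1% in the embryos and 33.2% and 30.6% in the livers over 25 CpGs (difference -46.9 points, adjusted p = 2.3e-07), and 0.552% of promoters fell further.
*Gp9* went from 77.3% and 75.1% to 41.4% and 46.7% over 15 CpGs (difference -32.2 points, adjusted p = 4.9e-06). At *Ppbp* the levels were 75.1% and 71.1% in embryos and 49.9% and 52.1% in livers over 10 CpGs, and at *Vwf* they were 80.1% and 78.0% against 59.8% and 57.6% over 22. The differences were -22.1 points (adjusted p = 0.00017) and -20.4 points (adjusted p = 0.00011). *Gp5* started lower, with 36.9% and 41.2% in embryos and 19.4% in both livers over 22 CpGs (difference -19.7 points, adjusted p = 4.5e-05).
The embryo and liver values of these 6 genes did not overlap. *Itgb3*, with 55 CpGs in the window, had 2.37% and 2.04% in embryos and 1.52% and 2.26% in livers, and did not pass the test (difference -0.32 points). With CpGs of at least 10 reads its difference was -1.45 points (adjusted p = 0.0030). Counting CpGs from 1 read up, it was 1.69 points (adjusted p = 0.015), so its direction depended on the CpGs counted. Near the edges of its window single CpGs moved in opposite directions. The wild-type mean at -687 was 0% in embryos and 43.7% in E14.5 livers. At +993 it was 56.8% and 8.93%, and at +835 it was 27.1% and 4.63%. *Gp6* had too few covered CpGs near its start for this comparison.

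A fall of this kind was common. Of all promoters tested, 40.2% were called lower and 15.3% higher in E14.5 liver, and of the 6,830 promoters with at least 50% methylation in the embryo, 92.1% were called lower, with a median difference of -20.6 points. *Ppbp* and *Vwf* were thus near the middle of such promoters, with 43.0% and 51.1% of them falling further. *Gp9* had 11.025% of them beyond it, *Itga2b* 1.67% and *Pf4* 0.0878%. The homozygous samples gave differences between the same stages of -67.0 points for *Pf4*, -44.1 for *Itga2b*, -34.3 for *Gp9*, -14.5 for *Ppbp*, -21.4 for *Vwf* and -20.9 for *Gp5*. Of 92 promoters of the genes listed by role, 45 fell and 16 rose, and of the 33 with at least 50% methylation in the embryo 32 fell.

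Single CpGs showed where in the window methylation was lost. At *Pf4* all 22 CpGs had both wild-type E14.5 livers below both wild-type embryos, beside 67.4% of all CpGs. From -844 to +324 the mean over the wild-type livers was 5.72% to 27.1%, and from +358 on it was 39.2% to 63.3%. CpGs with under 6 reads in some library are left out of these ranges. Among them, the CpG at -703 had 62.1% and 46.2% in the wild-type E14.5 livers and that at -314 had 34.2% and 37.5%, so the low stretch was not even. The 5 CpGs in the coding stretch shown above, at +152, +155, +160, +168 and +177, had means of 91.3% to 95.4% in embryos and 8.80% to 16.1% in E14.5 livers. At *Itga2b* the lowest values lay near the start site, with 1.22% to 8.98% at the 8 CpGs from -186 to +154, while the 2 CpGs at -931 and -997 stayed at 88.3% and 89.7%. In the *Gp9* sequence the CpG at -126 went from a mean of 81.0% to 18.3% and that at -20 from 85.8% to 34.96%. In the *Vwf* sequence the CpGs at -142, -50 and -23 had 25.3%, 9.61% and 23.8% in E14.5 liver, against 78.5%, 56.5% and 59.8% in the embryo.

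**Figure D3:**
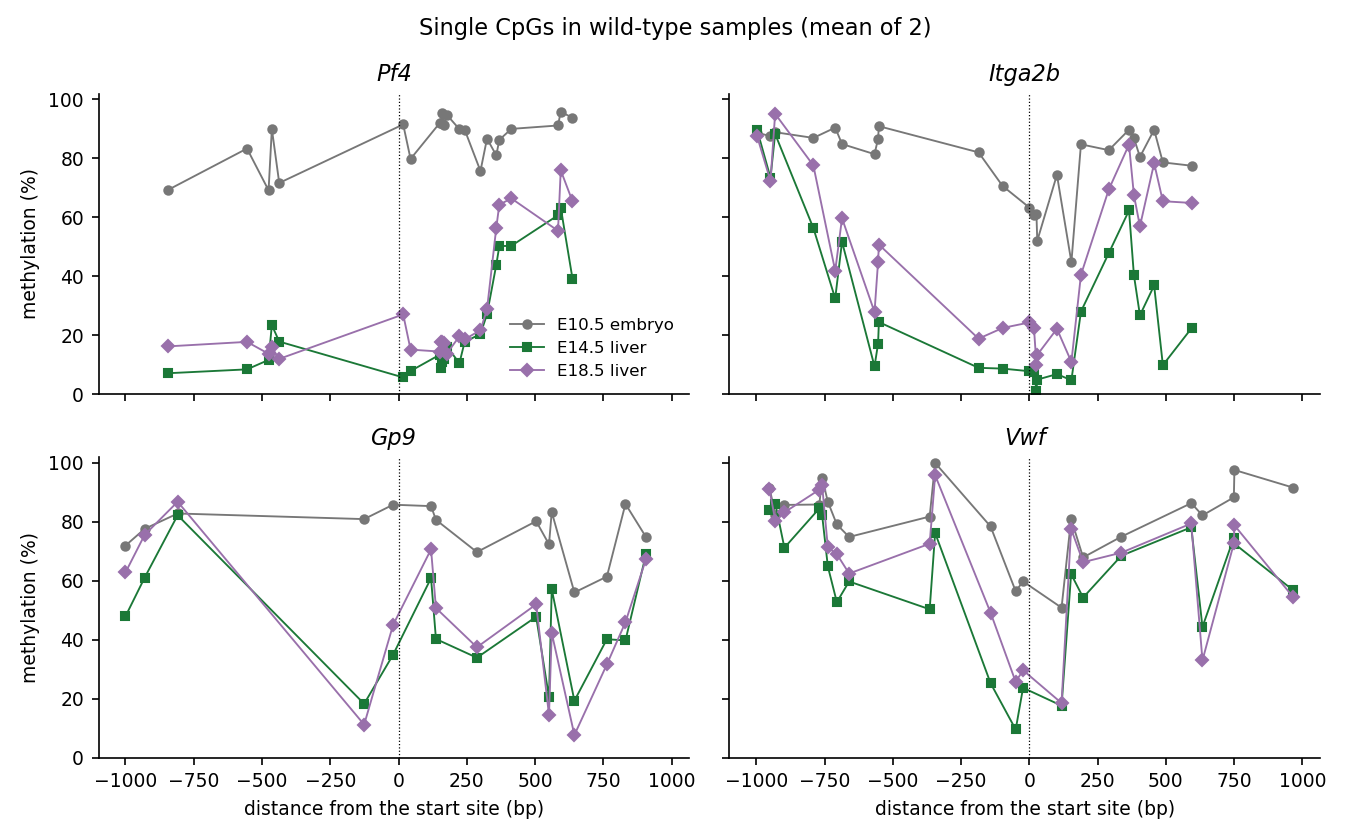
Methylation of single CpGs (percent, mean of 2 wild-type samples) against distance from the start site in bp, for CpGs covered at least 6 times in each of the 12 libraries, with E10.5 embryos in grey, E14.5 livers in green and E18.5 livers in purple. At *Pf4* the liver values of the CpGs shown were 5.72% to 28.8% from -844 to +324, and at *Itga2b* E18.5 values lay above E14.5 values at most CpGs.

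From E14.5 to E18.5 liver, *Itga2b* was the single promoter of the 7 that passed the test, in groups that also differ in sex. It rose from 33.2% and 30.6% to 51.5% and 52.4%, a difference of 20.04 points (adjusted p = 0.018), and was 1 of the 0.0969% of promoters called higher. The homozygous livers differed by 22.01 points between the same stages. The call was lost without any one of the 4 wild-type livers compared (differences of 18.7 to 21.3 points, adjusted p = 0.066 to 0.29) and with a window of 500 bp (22.1 points, adjusted p = 0.067). A group left with a single library is assumed there to vary like the other groups of the fit. At 17 of 25 CpGs both E18.5 livers were above both E14.5 livers, as they were at 32.4% of all CpGs. *Ppbp* and *Vwf* had differences of 10.6 and 9.49 points (adjusted p = 0.18 for both), *Pf4* 6.23, *Gp5* 4.14, *Gp9* 1.004 and *Itgb3* 0.51. With 1 library left out these were 7.65 to 13.6, 5.54 to 13.4, 3.29 to 9.17, 2.35 to 5.93, -1.66 to 3.66 and 0.14 to 0.87 points, in the same order of genes. The median was 0.0701 points over all promoters, and 5.61 points over the 6,830 promoters with at least 50% methylation in the embryo. Of these 6,830, 0.366% rose further than *Itga2b*, 13.3% further than *Ppbp*, 18.9% further than *Vwf*, 43.6% further than *Pf4* and 84.7% further than *Gp9*.

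Gene bodies were compared for the 4 genes that are much longer than the promoter window. In *Gp6* (chr7:4320315-4349346) methylation over 58 CpGs was 78.0% and 78.7% in wild-type embryos and 49.4% and 50.5% in E14.5 livers, a fall by 28.4 points (adjusted p = 3.7e-16), and 3.34% of gene bodies fell further. *Itgb3* (chr11:104469370-104531790) fell by 17.2 points over 529 CpGs and *Vwf* (chr6:125496792-125636697) by 16.6 points over 1,371 CpGs, although the promoter of *Itgb3* as a whole held little methylation. *Itga2b* (chr11:102314611-102331436) had 45.4% and 46.6% against 47.7% and 48.8% over 261 CpGs and did not pass (adjusted p = 0.32), in contrast with its promoter. Of all gene bodies 71.9% were called lower, with a median of -10.2 points. Of the 16,009 bodies with at least 50% methylation in the embryo, 87.4% were called lower, with a median of -13.8 points. Without the first 1 kb of the gene the difference at *Itga2b* was 6.53 points and passed (adjusted p = 0.0023).
From E14.5 to E18.5, 21.3% of all gene bodies were called higher, with a median of 2.85 points. Of those with at least 50% methylation in the embryo 26.1% were, with a median of 3.91 points. *Gp6* rose by 9.63 points (adjusted p = 0.014) and *Vwf* by 4.89 points (adjusted p = 0.030). Both calls were lost without wild-type E14.5 replicate 1 (9.08 and 3.68 points, adjusted p = 0.26 and 0.36), without wild-type E18.5 replicate 1 (8.03 and 4.93 points, 0.15 for both) and without wild-type E18.5 replicate 2 (11.2 and 4.85 points, 0.090 and 0.18).
The bodies of *Pf4* and *Ppbp* lie mostly within the promoter windows, and their values largely repeat those above. The body of *Gp9* shares only part of its CpGs with the window. Over 21 CpGs it fell by 16.3 points from E10.5 to E14.5 (edgeR, adjusted p = 5.4e-08), where the promoter differed by -32.2 points. From E14.5 to E18.5 the body differed by -3.82 points (adjusted p = 0.37) and the promoter by 1.004 points (adjusted p = 0.89), and neither passed. *Gp5*, whose coding sequence is rich in CpGs, had a mean body methylation of 6.55% over 146 CpGs in wild-type embryos and 6.84% in E14.5 livers.

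**Figure D4:**
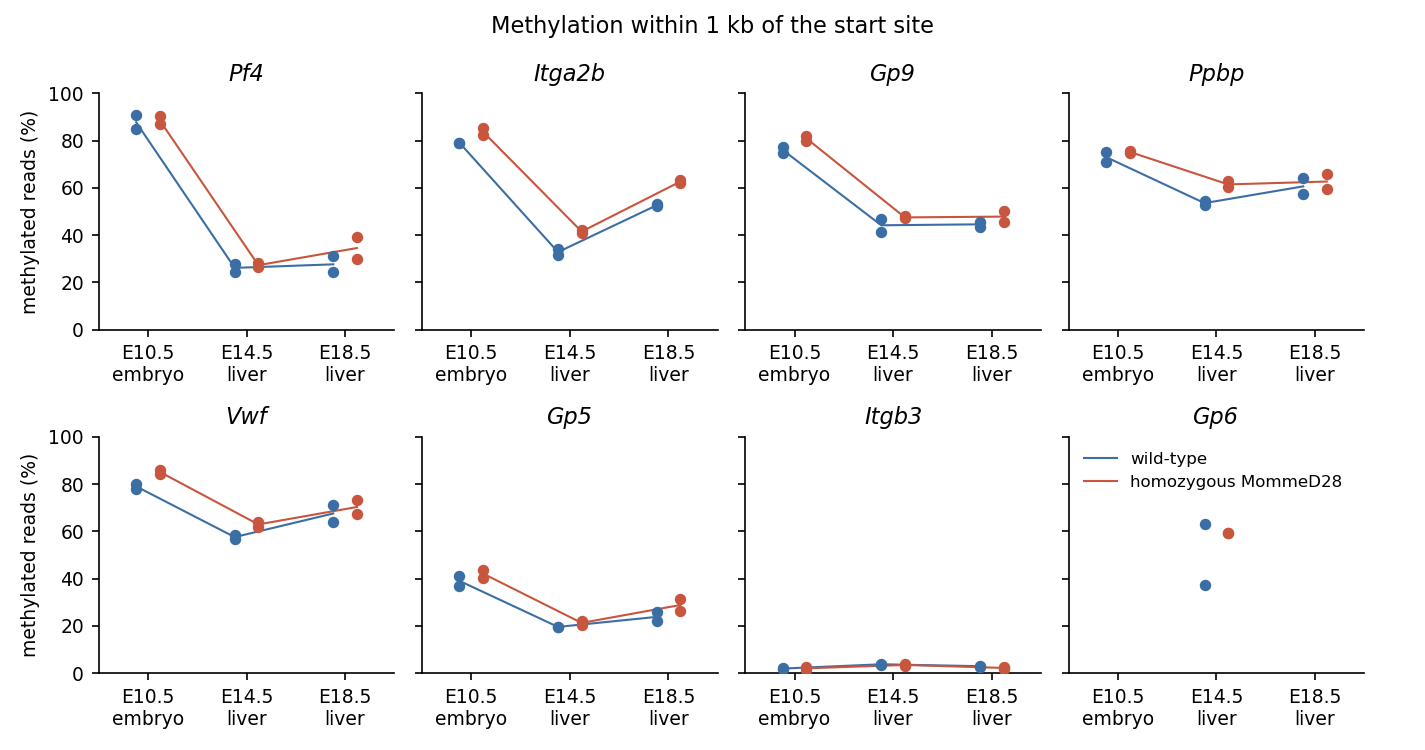
Percent of methylated reads within 1 kb of the start site in each bisulphite library, by stage, with wild-type in blue, homozygous in red and lines through the means of 2 samples, over CpGs with at least 6 reads in the 4 libraries of a stage. The CpGs counted thus differ between stages. In wild-type samples *Pf4* had a mean of 87.8% over 24 CpGs at E10.5 and of 26.2% over 35 CpGs at E14.5. *Itgb3* was at 4.01% or less in every library and *Gp6* had enough CpGs at E14.5 alone.

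The comparison of genotypes asked whether loss of Rlf changed methylation at these genes. It was made within each stage, over CpGs with at least 6 reads in its 4 libraries. In the fit without replicate number as a block, none of the promoters of the 8 genes passed edgeR's test at any stage, beside 1.04% of all promoters called in E10.5 embryos, 0% in E14.5 livers and 0.428% in E18.5 livers. In E14.5 livers 0 of 21,486 promoters passed and 2,337 had an unadjusted p under 0.05. A promoter that did not pass is not shown to be alike in both genotypes.
The promoter methylation of *Itga2b* was 34.1% and 31.6% in wild-type and 42.1% and 41.0% in homozygous E14.5 livers, and 52.3% and 53.0% against 63.3% and 62.1% in E18.5 livers. The homozygous samples were above the wild-type samples by 8.69 points at E14.5 (unadjusted p = 0.0092, adjusted p = 0.34) and by 10.03 points at E18.5 (unadjusted p = 0.013, adjusted p = 0.41). In the embryos the levels were 79.1% and 79.2% against 82.2% and 85.3%, a difference of 4.61 points. Of its single CpGs, both homozygous samples were above both wild-type samples at 16 of 30 in livers of E14.5 (21.1% of all CpGs), at 12 of 27 in E18.5 livers (19.7% of all) and at 7 of 27 in E10.5 embryos (17.6% of all). These counts were made for *Itga2b* alone, from the reads that gave its promoter differences, and are no evidence of their own.

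*Ppbp* had 52.8% and 54.4% and 62.8% and 60.2% in wild-type and homozygous livers at E14.5, which differed by 7.92 points (adjusted p = 0.39), and *Vwf* had 58.5% and 56.8% against 64.2% and 61.8%, a difference of 5.36 points (adjusted p = 0.49). In E18.5 livers the groups of both genes overlapped, with differences of 2.06 and 2.75 points, and leaving out 1 library turned the direction of both (-1.31 to 5.42 and -0.93 to 6.42 points). *Vwf* in E10.5 embryos had 80.1% and 78.0% against 84.3% and 86.1% (6.12 points, adjusted p = 0.31). *Pf4* overlapped between genotypes at each stage, with differences of 0.79, 1.15 and 6.91 points, the last from 24.3% and 31.1% in wild-type to 30.0% and 39.1% in homozygous E18.5 livers. With 1 library left out they were -2.26 to 3.84, -0.53 to 2.83 and 2.36 to 11.5 points, so that the direction in embryos and at E14.5 rested on single libraries. For *Gp9* the levels in wild-type and homozygous samples were 77.4% and 74.9% against 79.9% and 82.1% in embryos, 41.4% and 47.0% against 48.0% and 47.1% at E14.5, and 43.4% and 45.8% against 50.1% and 45.6% at E18.5. Its differences of 4.89, 3.34 and 3.27 points became 3.65 to 6.13, 0.50 to 6.18 and 1.02 to 5.51 points when 1 library was left out. For *Gp5* the levels were 36.9% and 41.2% against 43.9% and 40.4% in embryos, 19.4% and 19.7% against 20.6% and 21.96% at E14.5, and 21.9% and 25.7% against 31.5% and 26.2% at E18.5. Its differences of 3.06, 1.70 and 5.02 points became 0.91 to 5.21, 1.02 to 2.38 and 2.35 to 7.69 points in the same way, so the size of neither was settled by these libraries. *Itgb3* was between 1.54% and 4.01% in all 12 libraries. *Gp6* could be measured at E14.5 alone, over 3 CpGs, with 63.0% and 37.5% against 59.5% in both homozygous livers.

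Both homozygous samples were above both wild-type samples at 3 of 7 promoters in E10.5 embryos, 5 of 8 in E14.5 livers and 2 of 7 in E18.5 livers, beside 34.2%, 36% and 28.1% of all promoters. The reverse was seen for *Itgb3* in E18.5 livers, by 0.74 points (10.2% of all promoters). Over the bodies of all 8 genes, including those that share CpGs with the promoter windows, the counts were 5, 6 and 2 of 8, beside 51.4%, 52.6% and 30.2% of all genes. The reverse was seen for the body of *Gp6* in embryos, with a difference of -2.86 points, beside 3.75% of all genes. In the fit without replicate number as a block, none of the 8 bodies passed the test, beside 1.43%, 2.79% and 0.476% of all, and for *Itgb3*, *Vwf* and *Itga2b* at E14.5 the differences were 2.87, 2.06 and 3.53 points, where the median over all genes was 1.94. Without its first 1 kb the body of *Itgb3* passed in embryos (2.27 points, adjusted p = 0.047) among 2567 of all genes, against 301 with whole bodies. With its whole body the difference was 3.28 points, where the median over all genes was 1.77. The E14.5 differences of *Itgb3*, *Vwf* and *Itga2b* were 4.61, 3.21 and 4.21 points without wild-type replicate 2. Without wild-type replicate 1 they were 1.14, 0.91 and 2.84 points. At E18.5 the differences of *Itgb3* and *Vwf* were 3.93 and 2.83 points with all livers (adjusted p = 0.95 for both). They were 7.31 and 4.99 points without homozygous replicate 2, and 0.55 and 0.68 points without homozygous replicate 1, so their size rested on single libraries. With 1 library left out, 1 genotype is a single library, so only the differences are given here. A joint test of whether the genotype difference at a promoter varied between the stages passed at 0% of promoters (0 of 20,637, with 755 at an unadjusted p under 0.05), and the lowest unadjusted p among the 7 genes was 0.32.

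In tiles of 1 kb over the 8 genes and 5 kb to either side, both homozygous samples were above both wild-type samples at 97 of 281 tiles in E10.5 embryos, 117 of 310 in E14.5 livers and 93 of 292 in E18.5 livers. That is 34.5%, 37.7% and 31.8%, beside 26%, 29.9% and 27.8% of all tiles of the genome. The medians of the difference were 1.79, 2.19 and 2.71 points, and those over all tiles 1.02, 1.98 and 2.15. Most of the tiles came from the long genes *Vwf* and *Itgb3*. At *Vwf* both homozygous samples were above at 44 of 142 tiles in E10.5 embryos, 52 of 147 in E14.5 livers and 49 of 141 in E18.5 livers. *Itgb3* had 22 of 60, 24 of 68 and 20 of 65 such tiles, in the same order of stages, and *Itga2b* 16 of 26, 14 of 28 and 9 of 28. With shared tiles counted for each gene, *Ppbp* had 3 of 12, 5 of 13 and 4 of 12, and *Gp6* 2 of 14, 11 of 26 and 3 of 19. *Pf4* had 2 of 11, 6 of 12 and 5 of 11, and *Gp9* 6 of 12, 6 of 12 and 1 of 12. *Gp5* had 4 of 12, 2 of 13 and 4 of 12, with 0, 2 and 3 tiles the other way. Over the 8 genes both homozygous samples were below both wild-type samples at 21, 15 and 15 tiles. That is 7.47%, 4.84% and 5.14%, beside 11.2%, 7.13% and 7.67% of all tiles. Neighbouring tiles share reads and cells, so no test was made of these shares. With 1 library left out, when fewer samples have to be in order, the counts of tiles above were 142 to 149, 135 to 210 and 115 to 194. The highest values at E14.5 and E18.5 came without wild-type replicate 2 and without homozygous replicate 2. Libraries also differed over all tiles of the genome. Median tile methylation was 60.9% and 64.1% in wild-type and 65.4% and 64.3% in homozygous E14.5 livers. At E18.5 it was 69.7% and 70.4% against 74.6% and 70.4%. The part of these library levels in the differences at the tiles and gene bodies was not tested.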

How the data were processed

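Processed files of 6 RNA-seq and 12 bisulphite samples were used, and 4 ChIP-seq samples were not used here. For RNA the authors deposited read counts for each Ensembl gene, not normalised, from Tophat alignments to mm9 counted with htseq-count (unstranded, intersection-strict). For each CpG they deposited counts of methylated and of unmethylated reads with a rounded percent, after alignment by Bismark with Bowtie2 to an mm9 genome that carried FVB substitutions, removal of duplicates and merging of strands. The deposited percent was not used. CpGs of the reference on autosomes and X were used.

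Gene names, lengths and positions came from GENCODE vM1, which named 37,205 of 37,991 identifiers. Regional methylation is methylated over all reads at CpGs covered at least 6 times in every library compared, with at least 3 CpGs per region. edgeR 4.0.16 (R 4.3.3) tested the methylated against the unmethylated reads, each library having an intercept of its own, and RNA counts after TMM scaling and filterByExpr (minimum count 10, minimum total 15). Benjamini-Hochberg adjustment ran over all regions or genes, and calls were made at an adjusted p under 0.05. DESeq2 1.42.0 was an alternative. The scripts were tested on simulated data. Stage comparisons used 1 fit of all 12 libraries. Alternatives also covered size factors, filters, coverage, windows, sex, a replicate block and the omission of single libraries.

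Members and lists were chosen with earlier results of these data known. Named genes were the 8, *Rlf*, every called gene of the lists with the 2 most abundant per role, and the 5 genes most like the 8. Deviations of same-numbered RNA samples from their group means were correlated (r = 0.13, 0.23 and 0.41 over 14,183 genes), so counts of calls are also given with the block. Where no other setting is named, RNA fold changes, standard errors and adjusted p-values come from a fit of genotype alone, without pairing. Replicate 3 is female in both genotypes. RNA samples were independent biological replicates. The bisulphite samples are separate samples by their labels, so their p-values measure the spread between these samples. Reads carry no molecular identifiers. Figures were drawn with matplotlib 3.10.9.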

Additional observations from a re-analysis of the deposited data

Results flagged for a closer look

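In the body of *Gp6* the genotypes differed in opposite directions at 2 stages. In E10.5 embryos methylation was 77.8% and 78.8% in wild-type and 75.2% and 75.7% in homozygous samples, a difference of -2.86 points. In E14.5 livers it was 50.1% and 51.2% against 54.9% and 52.6%, a difference of 3.15 points. Both homozygous samples were thus below both wild-type samples in embryos and above them in E14.5 livers, as were 3.75% and 52.6% of all gene bodies. Neither difference passed the test within its stage (adjusted p = 0.38 and 0.43). With 1 library left out they were -3.37 to -2.36 and 2.04 to 4.26 points. In E18.5 livers the groups overlapped, with a difference of 1.74 points. A joint test of the genotype difference across stages for gene bodies, added after these values were seen, gave an unadjusted p of 0.19 and an adjusted p of 1 for *Gp6*, and called 16 of 20,980 bodies, none of them among the 8 genes.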

How the results depend on the processing

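With no filter on low counts 532 genes and 22 listed genes were called in RNA, and 460 and 19 with the replicate block. Leaving out 1 liver gave 66 to 224 genes and 1 to 9 listed genes. The numbers of bisulphite samples do not pair them by design. With the replicate block the genotype called 783, 1016 and 163 promoters at E10.5, E14.5 and E18.5, and 3117 and 321 bodies at E10.5 and E14.5. Under it *Itga2b* passed at E14.5 (8.69 points, adjusted p = 0.049), as did the *Itgb3* and *Vwf* bodies in embryos (adjusted p = 0.034 and 0.045). The *Itgb3* body also passed there without its first 1 kb (2.27 points, adjusted p = 0.047). Deviations of same-numbered samples correlated with r = 0.15, 0.14 and -0.029 over gene bodies. With all 12 libraries in the fit the genotype called 128, 31 and 35 promoters and 651, 260 and 167 bodies. CpGs with at least 1 read gave 117 promoters and 143 bodies at E10.5, and a window of 500 bp gave 71 promoters at E10.5 and 7 from E14.5 to E18.5. Without the first 1 kb 2567, 232 and 63 bodies were called, and 8920 from E14.5 to E18.5. Leaving out 1 library gave 104 to 439, 0 to 0 and 34 to 240 promoters, and 144 to 2141, 229 to 4861 and 24 to 7687 bodies. For stage it gave 4 to 21 promoters and 48 to 6878 bodies from E14.5 to E18.5, and for tiles 142 to 149, 135 to 210 and 115 to 194. The causes were not tested.

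Some small differences changed sign, and none of these values passed except 1 of *Itgb3*. With CpGs with at least 1 read *Itgb3* gave -0.041 in embryos, 1.69 from E10.5 to E14.5 (adjusted p = 0.015) and -0.12 from E14.5 to E18.5. With at least 10 reads *Pf4* gave -0.026 in embryos and the *Itga2b* body -0.27 from E10.5 to E14.5. A window of 500 bp gave -2.52 for *Ppbp*, -0.045 for *Itgb3* and -0.36 for *Gp9* in embryos, 0.026 for *Itgb3* at E14.5 and 0.33 from E10.5 to E14.5.
Leaving out 1 library turned the sign of these uncalled differences between genotypes, with ranges of -0.40 to 0.62 (*Itgb3*) and -2.26 to 3.84 (*Pf4*) in embryos, -0.66 to 0.098 (*Itgb3*), -0.53 to 2.83 (*Pf4*) and -3.55 to 21.99 (*Gp6*) at E14.5, and -1.31 to 5.42 (*Ppbp*), -0.93 to 6.42 (*Vwf*) and -1.16 to 4.64 (*Gp6* body) at E18.5. For stage the ranges were -0.68 to 0.052 (*Itgb3*, E10.5 to E14.5) and -1.66 to 3.66 (*Gp9*, E14.5 to E18.5). For RNA they were -0.0062 to 0.19 (*Gp6*), -0.032 to 0.14 (*Jak2*), -0.00012 to 0.096 (*Rap1b*) and -0.12 to 0.046 (*Tal1*). Reads per CpG limit single-CpG values in embryos and E18.5 livers most.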
